A study of Mus musculus with 12 samples.

Results

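The genes of the phagocyte NADPH oxidase and of oxidant defence were followed in RNA sequencing libraries of group 2 innate lymphoid cells (ILC2s) and eosinophils of the mouse. The set has 9 genes, taken by name from the 49315 rows of the count table. Of these, 5 encode parts of the oxidase (Cybb, Cyba, Ncf1, Ncf4 and Rac2) and 4 encode antioxidant enzymes (Sod2, Cat, Hmox1 and Txnrd1). Each symbol matched 1 Ensembl identifier, and 8 of the 9 passed the filter on low counts in the ILC2 coculture comparison and 9 in every other comparison.

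The study asked how the 2 cell types change each other, and its 12 libraries form 4 groups of 3. ILC2s came from lungs of C57BL/6 mice, were expanded with the alarmin IL-33 and with IL-25 beside IL-2 and IL-7, and then held in IL-2 and IL-7 for 48 h. Eosinophils came from blood of the same strain, as cells that passed B220 and CD90 bead columns, and were held with IL-33 for 24 h. After washing, each cell was kept for 24 h without cytokines, either alone or with the other, and the cells were parted by flow cytometry. The groups are ILC2s alone, ILC2s with eosinophils, eosinophils alone and eosinophils with ILC2s. No label names a mutant allele or transgene, and none gives the age of the mice, the number of cells or whether replicates were separate cultures, so p-values reflect only how far these samples differ from each other, which can be technical. Every eosinophil group had been given IL-33, and the ILC2s came from another tissue and other cytokines, so cell type, tissue and pretreatment cannot be told apart when the cells are compared.

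Library totals ran from 16769929 to 22928961 counts. Levels are given as CPM, a count divided by its library size after TMM scaling of all 12 libraries, and group values are means ± SD (n = 3). Log2 fold changes are ± SE and come from edgeR's quasi-likelihood test within the libraries compared, with Benjamini-Hochberg adjustment over all genes tested and a call at an adjusted p under 0.05. The labelled cells carried their defining transcripts. Summed over 8 eosinophil markers (among them Siglecf, Ccr3 and Prg2) the level was 3723 to 4382 CPM in eosinophil libraries and 1.20 to 2.34 CPM in ILC2 libraries. Summed over 8 ILC2 and lymphoid markers (among them Gata3, Il7r and Thy1) it was 3685 to 4065 CPM in ILC2 libraries and 11.5 to 21.7 CPM in eosinophil libraries. In sorted bulk samples, fewer cells that hold a transcript and less of it per cell cannot be told apart.

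The phagocyte oxidase moves electrons from NADPH across a membrane to oxygen and so makes superoxide. Its membrane core pairs gp91phox (Cybb), which carries the electrons, with p22phox (Cyba), which stabilises it. On activation cytosolic proteins, among them p47phox (Ncf1) and p40phox (Ncf4), and the GTPase RAC2 join the core. Eosinophils are known for a strong oxidative burst, and their granule peroxidase uses the hydrogen peroxide that forms from superoxide. Dismutases such as SOD2 of mitochondria convert superoxide to hydrogen peroxide, and catalase (Cat), peroxiredoxins and glutathione peroxidases remove it. Thioredoxin reductase 1 (Txnrd1) keeps thioredoxin reduced with electrons from NADPH, and haem oxygenase 1 (Hmox1) breaks down haem into iron, carbon monoxide and biliverdin. Txnrd1 and Hmox1 are classical targets of the transcription factor NRF2 (Nfe2l2), and BACH1 represses Hmox1.

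RefSeq promoter entries (build GRCm38.p6, the sequence of mm10) matched 6 of the 9 genes, all but Ncf4, Rac2 and Hmox1. The bases before the start site were searched on both strands for TGACNNNGC, the core of the antioxidant response element that NRF2 binds, for GAGGAA, a core of sites of the myeloid factor PU.1, and for the NF-kB element. Over all 32851 promoter entries, windows of 250 bases held these in 10.2%, 23.3% and 7.25%. Shown are Txnrd1, the gene of the set with the smallest adjusted p in ILC2s, Sod2, which fell there, and Cybb, the gene with the smallest adjusted p in eosinophils. Capitals mark matches, each sequence runs 5′ to 3′ on the gene's strand, and bases inside an annotated exon are left out.
Txnrd1 (chr10:82858956-82859178, plus strand): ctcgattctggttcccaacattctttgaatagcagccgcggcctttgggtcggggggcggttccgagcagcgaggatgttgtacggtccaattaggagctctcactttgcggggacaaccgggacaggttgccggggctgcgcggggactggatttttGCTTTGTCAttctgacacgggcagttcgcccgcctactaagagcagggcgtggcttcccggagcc
Sod2 (chr17:13007589-13007816, plus strand): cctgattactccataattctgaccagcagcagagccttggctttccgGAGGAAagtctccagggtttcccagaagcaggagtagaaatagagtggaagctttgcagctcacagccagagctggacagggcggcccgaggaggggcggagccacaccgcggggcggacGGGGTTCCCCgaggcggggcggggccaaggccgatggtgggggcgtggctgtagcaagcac
Cybb (chrX:9469325-9469574, minus strand): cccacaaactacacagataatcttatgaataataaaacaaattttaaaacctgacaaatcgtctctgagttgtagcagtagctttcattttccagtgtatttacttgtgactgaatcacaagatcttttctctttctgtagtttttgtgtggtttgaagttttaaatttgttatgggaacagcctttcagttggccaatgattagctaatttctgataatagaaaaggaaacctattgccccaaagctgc
The Txnrd1 window held 1 antioxidant response element core, on the minus strand, whose first base stands 92 bases before the start site. Txnrd1 has 3 start sites in the table, and neither of the other windows held that core. In Sod2 a PU.1 core began 203 bases and an NF-kB element 83 bases before the start. Cat, not shown, held the same motifs, at 235 and 116 bases. Another Txnrd1 window held PU.1 cores 169 and 84 bases before its start site. Cybb, Cyba and Ncf1 held none of the 3 motifs in this stretch, which says only that these letters are not there. The counts are per gene and do not show which start site was used.

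Eosinophils cultured alone held more of 8 of the 9 transcripts than ILC2s cultured alone, and Sod2 was higher in ILC2s. Over all 14525 genes tested, 80.7% were called, 39.9% lower in ILC2s and 40.8% higher. Within both the membrane core and the cytosolic parts, 1 transcript was close to absent from ILC2s and another was present there. Cybb (ENSMUSG00000015340, chromosome X, 9435252 to 9487771 on mm10) stood at 911, 951 and 930.5 CPM in eosinophils alone and 0.384, 0.270 and 0.174 CPM in ILC2s alone. Ncf1 (ENSMUSG00000015950, chromosome 5, 134220053 to 134229625), the organiser of the cytosolic complex, stood at 2904, 2860 and 3154 CPM in eosinophils alone and 1.44, 1.44 and 0.768 CPM in ILC2s alone. Both were close to absent from ILC2s, with 19 and 84 counts over the 3 libraries and log2 fold changes (ILC2 minus eosinophil) of -11.74 ± 0.12 (edgeR adjusted p = 2e-18) and -11.29 ± 0.13 (edgeR adjusted p = 6.6e-18). Their level in ILC2s alone was 0.0297% and 0.0409% of that in eosinophils alone, inside the range of the 8 eosinophil markers (0.0132% to 0.269%, median 0.0569%). A stretch of 408 exonic bases, 11.1% of the annotated exon length of Ncf1, overlaps the gene Gtf2ird2 on the opposite strand, so reads there cannot be told apart without the strand setting. Gtf2ird2 itself stood at 21.2 to 24.6 CPM in ILC2s alone.

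The other oxidase genes were present in both cells. Cyba (ENSMUSG00000006519, chromosome 8, 122424776 to 122432930) stood at 117 ± 9.30 CPM in ILC2s alone and 958 ± 140 CPM in eosinophils alone (log2 fold change -3.03 ± 0.092). Ncf4 (ENSMUSG00000071715, chromosome 15, 78244801 to 78262580), whose product binds phosphoinositides of the phagosome, stood at 58.9 ± 3.10 and 933 ± 70.0 CPM (-3.98 ± 0.072). Rac2 (ENSMUSG00000033220, chromosome 15, 78559167 to 78572783), a GTPase of blood cells that also serves migration, stood at 405 ± 14.4 and 1418 ± 136 CPM (-1.80 ± 0.067). ILC2s thus held the transcripts of p22phox, p40phox and RAC2 while those of gp91phox and p47phox were at the level of eosinophil marker traces.

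Among the antioxidant genes, Cat (ENSMUSG00000027187, chromosome 2, 103453849 to 103485160) stood at 71.0 ± 0.734 CPM in ILC2s alone and 572 ± 15.9 CPM in eosinophils alone (log2 fold change -3.00 ± 0.057). Hmox1 (ENSMUSG00000005413, chromosome 8, 75093621 to 75100589) was low in both, at 2.72 ± 0.255 and 32.0 ± 2.97 CPM (-3.55 ± 0.13). Txnrd1 (ENSMUSG00000020250, chromosome 10, 82833951 to 82897712) stood at 108 ± 4.55 and 199 ± 6.79 CPM (-0.87 ± 0.060). Sod2 (ENSMUSG00000006818, chromosome 17, 13006846 to 13040063) was the 1 gene of the set that was higher in ILC2s, at 67.0 ± 0.262 against 44.3 ± 3.72 CPM (0.61 ± 0.070, edgeR adjusted p = 1.2e-06). These 9 calls and directions held under all 14 alternatives tried. Library totals in place of TMM shifted the median gene by 0.57 on the log2 scale and raised the share of higher calls from 50.5% to 70.1%. It also brought Txnrd1 to -0.30 (edgeR adjusted p = 0.00033) and Sod2 to 1.18.

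**Figure D1:**
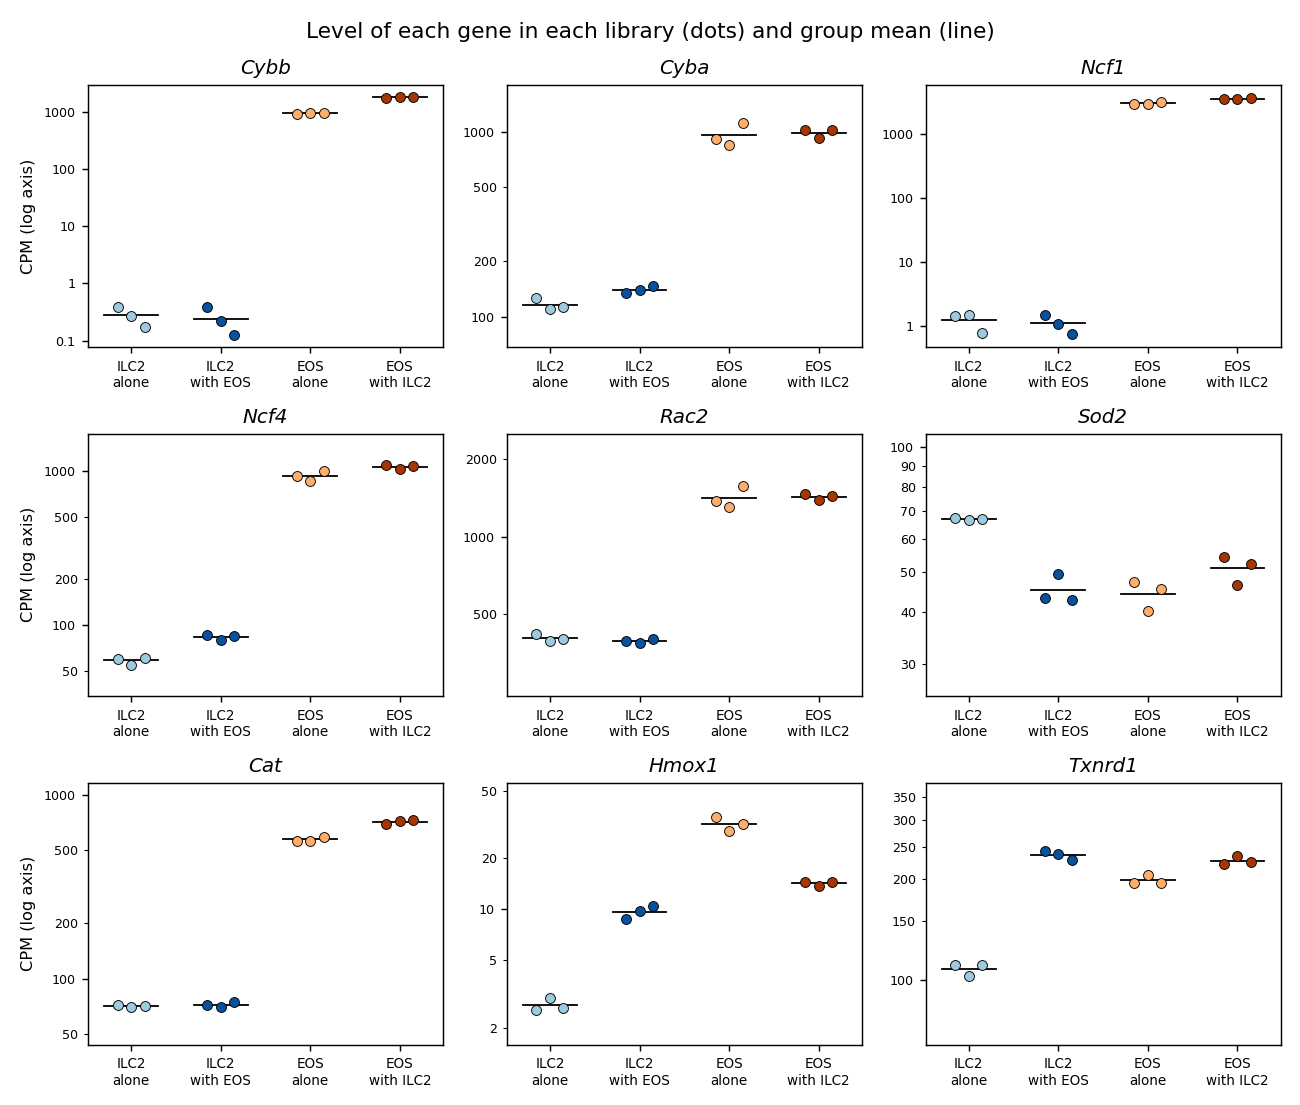
Level of each of the 9 genes in each of the 12 libraries, in CPM on a log axis that differs between panels, with ILC2 groups in blue and eosinophil groups in orange. Dots are libraries and lines are group means; Cybb and Ncf1 stand below 1.5 CPM in every ILC2 library, and Hmox1 is higher in cocultured ILC2s and lower in cocultured eosinophils than in the cells alone.

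Levels of different genes were compared per kilobase of annotated exon. In eosinophils alone the order was Cyba (922 ± 134 CPM per kilobase), Ncf1 (812 ± 43.4), Ncf4 (462 ± 34.6), Rac2 (457 ± 43.7), Cat (219 ± 6.07), Cybb (160 ± 3.52), Txnrd1 (28.0 ± 0.958), Hmox1 (18.3 ± 1.70) and Sod2 (4.43 ± 0.372). Cyba and Ncf1, and Ncf4 and Rac2, did not differ beyond their SD. Cybb was thus the least abundant of the 5 oxidase transcripts in eosinophils by this measure. In eosinophils with ILC2s Cybb stood at 307 ± 10.9 CPM per kilobase, above Cat at 273 ± 7.79, and the other genes kept their places except that Ncf1 (963 ± 18.9) and Cyba (951 ± 52.6) changed order within their SD. In ILC2s alone Rac2 (131 ± 4.65) and Cyba (112 ± 8.95) led, and Cybb was last at 0.0475 ± 0.0180 CPM per kilobase. The exon length joins all annotated transcripts, which lowers the value of genes with long alternative exons, such as Sod2 with 10008 bases.

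**Figure D2:**
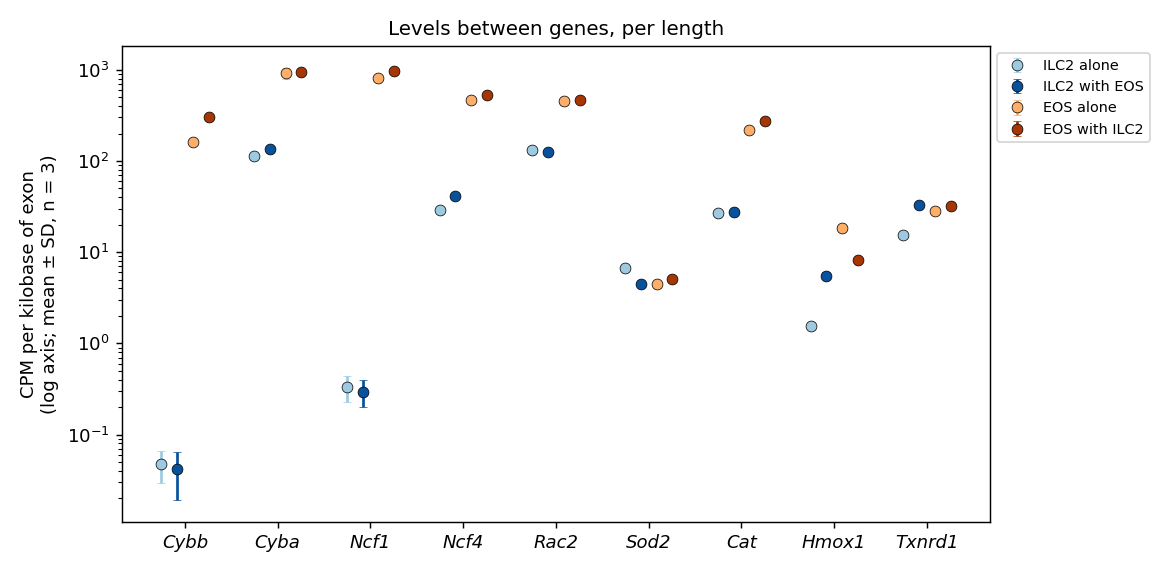
Group means ± SD (n = 3) of the 9 genes in CPM per kilobase of exon, on a log axis, for the 4 groups. In both eosinophil groups the 5 oxidase genes stand above 150 CPM per kilobase, whereas in ILC2s Cybb and Ncf1 stand below 1 and Cyba and Rac2 above 100.

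In eosinophils, coculture with ILC2s raised Cybb, Ncf1 and Cat and lowered Hmox1. The other 5 genes did not pass the test. Over all 13109 genes tested, 24.9% were called, 11.4% higher and 13.5% lower, and the median log2 fold change was 0.16 over the 9 genes and 0.0044 over all genes. With library totals in place of TMM, 58.0% of calls were higher, against 45.7%.

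Cybb changed most among the oxidase genes of eosinophils. It rose from 911, 951 and 930.5 CPM alone to 1713, 1835 and 1802 CPM with ILC2s, a log2 fold change of 0.91 ± 0.052 or 1.88-fold (edgeR adjusted p = 2.2e-08). Every cocultured library stood above every library of eosinophils alone. Ncf1 rose less, from 2904, 2860 and 3154 CPM to 3462, 3524 and 3600.5 CPM (0.22 ± 0.049, 1.16-fold, edgeR adjusted p = 0.0051), again without overlap.

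Of the partners, Cyba stood at 911, 848 and 1115 CPM alone and 1023, 925 and 1016 CPM with ILC2s, with overlap (log2 fold change 0.016 ± 0.082, 95% interval -0.14 to 0.18, edgeR adjusted p = 0.91). Its sign turned without 1 of several libraries. Rac2 stood at 1373, 1310 and 1570 CPM alone and 1470, 1384 and 1446 CPM cocultured, and its fitted log2 fold change was -0.013 ± 0.062 (95% interval -0.14 to 0.11, edgeR adjusted p = 0.91). The sign of Rac2 differed between scalings, and both intervals leave out a change as large as that of Cybb. Ncf4 stood at 929, 866 and 1005 CPM alone and 1094, 1035 and 1072 CPM cocultured. Its groups did not overlap, but it missed the threshold (0.16 ± 0.058, edgeR adjusted p = 0.053) and passed under 6 of 14 alternatives, among them DESeq2 (adjusted p = 0.044) and the fit without eosinophils alone replicate 3 (edgeR adjusted p = 0.0088). The transcripts of gp91phox and p22phox, partners in the membrane core, had log2 fold changes whose 95% intervals (0.81 to 1.01 and -0.14 to 0.18) did not overlap.

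The blood fraction could hold other phagocytes with an oxidase, so their markers were measured beside these genes. Summed over 10 neutrophil markers the level was 112 to 150 CPM in eosinophils alone and 707 to 802 CPM in eosinophils with ILC2s. Most of it was Retnlg, at 115 and 752 CPM. The other 9 markers summed to 16.2 to 21.8 CPM alone and 12.8 to 13.8 CPM cocultured. Camp had 0 counts in both groups, and Elane had 2 counts alone and 0 cocultured. Mmp8 went from 0.483 to 2.24 CPM and Ngp from 4.42 to 4.76 CPM, while the means of S100a8, S100a9, Ly6g, Ltf and Mpo were lower in coculture. Summed over 10 monocyte and macrophage markers the level was 520 to 594 CPM alone and 597 to 629 CPM cocultured, most of it Csf1r at 441 and 481 CPM. Lyz2 stood at 12.2 and 76.6 CPM, Ly6c2 at 49.4 and 23.1 CPM and Fcgr1 at 34.9 and 17.7 CPM, and C1qa, C1qb and Mertk stayed under 1 CPM. None of the 10 monocyte markers was at 0 in either group. The part of these cells in the rise of Cybb and Ncf1 was not tested. Cybb and Ncf1 in cocultured ILC2s stood at 0.0136% and 0.0307% of their level in cocultured eosinophils.

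Hmox1 fell in eosinophils, from 35.1, 29.1 and 31.9 CPM alone to 14.4, 13.7 and 14.6 CPM with ILC2s (log2 fold change -1.20 ± 0.098, 2.29-fold lower, edgeR adjusted p = 7.8e-07). All 3 cocultured libraries lay below all libraries of eosinophils alone. Cat rose from 563, 562 and 590.0 CPM to 691, 723 and 729 CPM (0.29 ± 0.051, 1.22-fold, edgeR adjusted p = 0.00086), without overlap.

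Txnrd1 stood at 195, 207 and 194 CPM alone and 222, 235 and 224 CPM cocultured. Its groups did not overlap, yet it missed the threshold (0.16 ± 0.058, edgeR adjusted p = 0.055), and it passed under 4 of 14 alternatives, including the fit without eosinophils alone replicate 2 (edgeR adjusted p = 0.019) and the replicate block (0.0085). The block also called Ncf4 (edgeR adjusted p = 0.0063). Sod2 stood at 47.3, 40.1 and 45.5 CPM alone and 54.4, 46.4 and 52.3 CPM cocultured, with overlap (0.17 ± 0.085, 95% interval 0.0090 to 0.34, edgeR adjusted p = 0.16).

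In ILC2s, coculture with eosinophils raised Hmox1, Txnrd1, Ncf4 and Cyba and lowered Sod2. Ncf1, Rac2 and Cat did not pass the test, and Cybb was not tested. Over all 14438 genes tested, 72.4% were called, 36.8% higher and 35.6% lower, beside 5 of the 8 genes tested. The median log2 fold change was 0.14 over the 8 genes and 0.0029 over all genes, and with library totals the latter shifted by -0.16.

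Hmox1 had the largest fold of the set. It rose from 2.54, 3.02 and 2.62 CPM alone to 8.76, 9.84 and 10.5 CPM with eosinophils (log2 fold change 1.82 ± 0.15, 3.54-fold, edgeR adjusted p = 3.9e-12). These levels rest on 195 counts over the 3 libraries alone and 684 over the 3 cocultured libraries. Txnrd1 rose from 111, 103 and 111 CPM to 242, 237 and 228 CPM (1.11 ± 0.040, 2.16-fold, edgeR adjusted p = 3.6e-20). No cocultured library overlapped a library of ILC2s alone in either gene.

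Sod2 went the other way, from 67.3, 66.8 and 67.0 CPM alone to 43.1, 49.5 and 42.9 CPM (-0.58 ± 0.056, 1.49-fold lower, edgeR adjusted p = 2.3e-10). Cat stood at 71.6, 70.2 and 71.1 CPM alone and 72.1, 69.7 and 74.6 CPM cocultured, with overlap (0.015 ± 0.046, 95% interval -0.075 to 0.11, edgeR adjusted p = 0.78). With library totals Cat was called lower (-0.14, edgeR adjusted p = 0.0075). The mitochondrial dismutase, which makes hydrogen peroxide, and catalase, which removes it, thus had log2 intervals that did not overlap (-0.69 to -0.47 for Sod2).

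Among the oxidase genes of ILC2s, Ncf4 rose from 60.0, 55.4 and 61.3 CPM to 85.9, 80.5 and 85.1 CPM (0.50 ± 0.049, 1.42-fold, edgeR adjusted p = 3.1e-10). Cyba rose from 127, 110 and 113 CPM to 134, 140.1 and 146 CPM (0.26 ± 0.047, 1.20-fold, edgeR adjusted p = 1.6e-05), and with library totals by 0.10 (edgeR adjusted p = 0.043). Rac2 stood at 421, 393 and 402 CPM alone and 395, 386 and 402 CPM cocultured (-0.049 ± 0.038, 95% interval -0.12 to 0.027, edgeR adjusted p = 0.26). It was called lower with library totals (-0.21, edgeR adjusted p = 1.5e-05) and with upper quartile scaling (-0.12, edgeR adjusted p = 0.0091). Cybb had 19 counts alone and 17 with eosinophils, and Ncf1 84 and 76 (-0.15 ± 0.34, 95% interval -0.83 to 0.52, edgeR adjusted p = 0.70). Cybb was too low to be tested, and a change of Ncf1 within that interval was not detectable at this depth.

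Markers of the partner and of other cells were measured beside the ILC2 results. The 8 eosinophil markers stood in cocultured ILC2s at 0% to 0.283% of cocultured eosinophils (median 0.0276%), with Ear2 at 0 counts, and in ILC2s alone at 0.0132% to 0.269% of eosinophils alone. Hmox1 and Txnrd1 in cocultured ILC2s stood at 68.0% and 104% of their level in cocultured eosinophils. In ILC2s alone they stood at 8.51% and 54.5% of their level in eosinophils alone. The part of eosinophil RNA in their rise was not tested. Beside Hmox1, which handles haem, the 5 red cell markers summed to 0.959 to 1.54 CPM in ILC2s alone and 13.7 to 17.8 CPM in cocultured ILC2s. Nearly all of the cocultured sum was Hba-a1 (0.390 CPM alone and 14.4 CPM cocultured), a gene with a near-identical copy. Alas2 went the other way, from 0.816 to 0.480 CPM. Summed counts alone and cocultured were 0 and 16 for Hba-a2 and 0 and 2 for Hbb-bt, and Hbb-bs had 0 counts in both groups. The part of red cell RNA in the Hmox1 result was not tested.

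**Figure D3:**
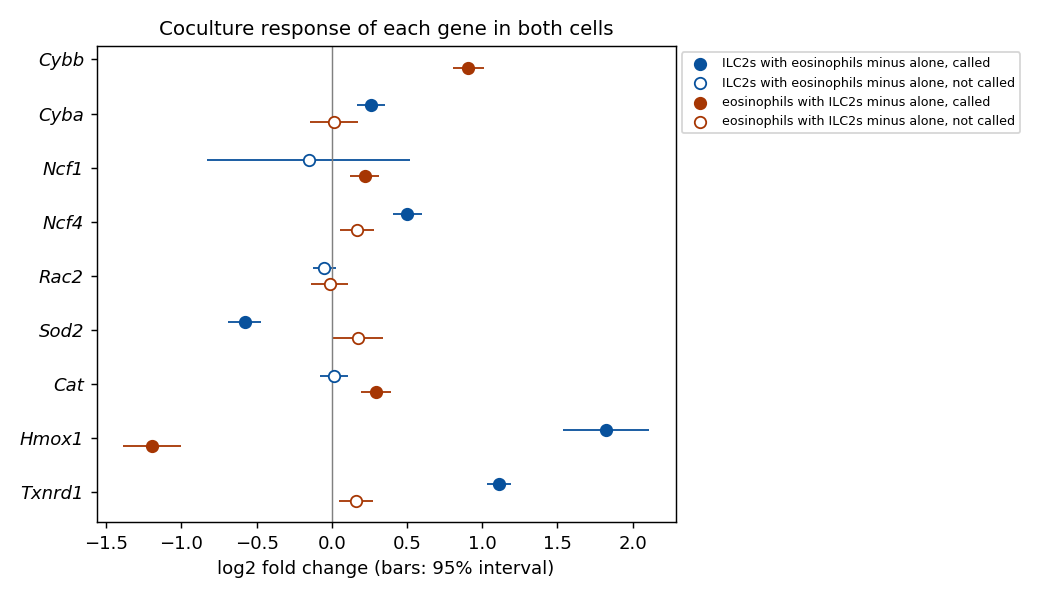
Log2 fold change of each gene in cocultured cells over the same cells alone, for ILC2s (blue) and eosinophils (orange), with 95% intervals. Filled points passed the threshold; Hmox1 lies at 1.82 in ILC2s and -1.20 in eosinophils, Cybb was tested only in eosinophils, and the interval of Ncf1 in ILC2s is wide.

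The 2 responses were compared in 1 fit of all 12 libraries, as the ILC2 response minus the eosinophil response; it uses the same libraries as the comparisons above. Over 15745 genes tested, 51.5% were called, 26.8% higher and 24.8% lower, and 3 and 2 of the 9 genes. With library totals 39.6% of calls were higher, against 51.9%, and the median gene shifted by -0.19. Hmox1 differed most, by 3.00 ± 0.17 (edgeR adjusted p = 3.3e-13); it rose in ILC2s and fell in eosinophils. Txnrd1 rose more in ILC2s (0.93 ± 0.073, edgeR adjusted p = 1.7e-10). Sod2 (-0.77 ± 0.11, edgeR adjusted p = 1.5e-06) and Cat (-0.30 ± 0.071, edgeR adjusted p = 0.0010) had the lower response in ILC2s. Ncf4 was called as well (0.32 ± 0.083, edgeR adjusted p = 0.0026), but not with library totals (0.12, edgeR adjusted p = 0.18). Rac2 missed the threshold (-0.057 ± 0.082, edgeR adjusted p = 0.60), and so did Cyba (0.22 ± 0.11, 0.095) and Ncf1 (-0.37 ± 0.24, 0.22). Cybb also missed it (-1.07 ± 0.41, edgeR adjusted p = 0.051) and passed under 9 of 19 alternatives, a value that rests on the 36 counts of Cybb in 6 ILC2 libraries.

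Cocultured ILC2s were then set against cocultured eosinophils. Of the 9 genes 8 were called lower in cocultured ILC2s than in cocultured eosinophils, where 40.5% of 14634 genes were, and 0 higher, where 43.6% were (84.0% in either direction). With library totals 65.8% of calls were higher, against 51.8%, and the median gene shifted by 0.40. Cybb stood at 0.242 ± 0.131 and 1783 ± 63.2 CPM (-12.82 ± 0.11), and Hmox1 at 9.70 ± 0.880 and 14.3 ± 0.478 CPM (-0.56 ± 0.11, edgeR adjusted p = 4.4e-05, and -0.17 with library totals, edgeR adjusted p = 0.17). Txnrd1 stood at 236 ± 7.24 and 227 ± 6.97 CPM, with overlap (0.045 ± 0.047, 95% interval -0.047 to 0.14, edgeR adjusted p = 0.38). It was called higher in ILC2s with library totals (0.44, edgeR adjusted p = 1.3e-09) and with upper quartile scaling (0.24, edgeR adjusted p = 2.8e-05). Sod2 stood at 45.2 ± 3.73 and 51.0 ± 4.13 CPM with overlap. Its call (-0.19 ± 0.071, edgeR adjusted p = 0.019) turned with library totals (0.21, edgeR adjusted p = 0.0080) and was lost with no low-count filter (0.084) and without any of 4 libraries (replicates 1 and 3 of ILC2s with eosinophils, 0.098 for both, and replicates 1 and 3 of eosinophils with ILC2s, 0.079 and 0.056).

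The rest of the pathway was read from 9 lists of 95 genes in all, the 9 genes included. In ILC2s 78 could be tested, of which 41 (52.6%) rose and 21 (26.9%) fell, beside 36.8% and 35.6% of all genes. The median log2 fold change of the 78 was 0.26. In eosinophils 80 could be tested, of which 18 (22.5%) rose and 14 (17.5%) fell, beside 11.4% and 13.5% of all genes, with a median of 0.093. The lists were chosen with earlier results of these data known, so these shares are a description and no test. In what follows each fold change is cocultured over alone, on the log2 scale.

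The wider oxidase complex has 9 genes, among them Rac1, Rap1a and the chaperone gene Cybc1 beside the 5 subunits already given. In ILC2s 5 of 8 tested rose, Cybc1 fell and the median was 0.38. Rap1a, a small GTPase found with the membrane core, rose from 115 ± 1.75 to 293 ± 8.93 CPM (1.35 ± 0.039), and Rac1 rose by 0.52 ± 0.038. In eosinophils Cybb and Ncf1 rose, Rap1a fell (-0.21 ± 0.056, edgeR adjusted p = 0.015) and 6 did not pass, with a median of 0.045. The fall of Rap1a was lost with library totals (edgeR adjusted p = 0.059) and without eosinophils with ILC2s replicate 1 (0.051) or 2 (0.081).

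A list of 7 genes held some that switch the oxidase on or balance its charge. It also held Arhgdia and Arhgdib, which keep RAC proteins and related GTPases inactive. In ILC2s 6 of the 7 fell and 1 rose (median -0.48), so these counts mix opposing functions. Prex1, an exchange factor for RAC proteins, fell from 369.8 ± 11.7 to 243 ± 0.817 CPM (-0.61 ± 0.038). Arhgdib fell slightly (-0.089 ± 0.037) and Arhgdia rose (0.79 ± 0.039). In eosinophils 2 rose and 1 fell (median 0.096). The proton channel gene Hvcn1, whose product carries out charge that the oxidase moves, rose from 168 ± 15.4 to 229.6 ± 8.71 CPM (0.42 ± 0.067, edgeR adjusted p = 0.00038), and the kinase gene Prkcb from 348 ± 19.6 to 451 ± 9.48 CPM (0.34 ± 0.059, edgeR adjusted p = 0.00076). Both genes fell in ILC2s, at low levels (Hvcn1 -0.64 ± 0.14, Prkcb -0.48 ± 0.12).

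Other NADPH oxidases and haem peroxidases were scarcely present. Of 12 genes 3 could be tested in each cell (median -0.29 in ILC2s and 0.33 in eosinophils), and Duoxa1 and Duoxa2 had 0 counts in all groups. Epx, the eosinophil peroxidase, stood at 11.9 ± 0.108 CPM in eosinophils alone and 15.2 ± 1.41 CPM cocultured (0.33 ± 0.11), without a call. Mpo, the neutrophil peroxidase, had 3 counts in ILC2s alone and 171 in ILC2s kept with eosinophils, where the libraries held 97, 27 and 47. The ratio of these levels was 58.0, and its 95% interval for counting error alone ran from 19.5 to 284. The ratio was 37.7 without ILC2s with eosinophils replicate 1 and 120.2 without ILC2s alone replicate 2, in an alternative chosen after seeing the data. The cocultured eosinophils held 6 counts of it. Elane, another neutrophil granule gene, was at 0 in each library of ILC2s alone, and the cocultured libraries held 31, 11 and 9 counts. Set against 3 counts for the whole group alone, it was at least 17.3-fold higher. In the same alternative that limit fell to 10.2-fold without ILC2s with eosinophils replicate 1 and to 10.4-fold without ILC2s alone replicate 3. Of the other neutrophil markers, S100a8 and S100a9 had 0 counts in both ILC2 groups. Summed counts alone and cocultured were 10 and 7 for Retnlg, 4 and 1 for Ngp and 4 and 3 for Mmp8. They were 1 and 2 for Camp, 0 and 1 for Ly6g and 0 and 1 for Ltf. The part of neutrophil RNA in the Mpo and Elane counts was not tested.

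Of genes that remove superoxide and peroxide, 8 of 13 tested rose in ILC2s and 3 fell (median 0.33). Gpx1, a glutathione peroxidase, rose from 65.6 ± 2.41 to 294 ± 18.2 CPM (2.16 ± 0.045), and the peroxiredoxin gene Prdx1 from 64.3 ± 3.63 to 223 ± 5.78 CPM (1.78 ± 0.043). Prdx4 and the cytosolic dismutase gene Sod1 rose too (1.76 ± 0.069 and 0.46 ± 0.041), while Sod2, Gpx3 and Prdx6 fell. In eosinophils Cat and Prdx1 (0.35 ± 0.076) rose and Sod1, Prdx2 and Prdx5 fell of 12 tested (median -0.059). Prdx5 fell from 399.7 ± 38.8 to 325 ± 23.5 CPM (-0.33 ± 0.073, edgeR adjusted p = 0.0046). Prdx1, Txn1, Fth1 and Ftl1 have processed pseudogenes, so their counts are uncertain.

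The thioredoxin system, to which Txnrd1 belongs, rose in 6 of 9 genes of ILC2s and fell in 2 (median 0.55). Its substrate gene Txn1 rose from 83.0 ± 4.91 to 245 ± 5.34 CPM (1.55 ± 0.042) and the glutaredoxin gene Glrx from 32.8 ± 1.87 to 161 ± 6.95 CPM (2.29 ± 0.050). Txnip, whose product binds and inhibits thioredoxin, fell (-1.18 ± 0.046), and Srxn1, which restores peroxiredoxins, rose from 11.3 ± 0.582 to 22.8 ± 1.09 CPM. In eosinophils 2 of 9 rose (median 0.12), Txn1 (0.32 ± 0.085, edgeR adjusted p = 0.014) and Glrx (0.22 ± 0.076), the latter just inside the threshold. The Glrx call was lost under 9 of 14 alternatives (edgeR adjusted p = 0.050 to 0.22), and that of Txn1 without eosinophils alone replicate 1 or eosinophils with ILC2s replicate 1 or 3 (edgeR adjusted p = 0.060 to 0.082).

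Glutathione genes had 4 higher and 2 lower of 10 in ILC2s (median 0.21) and 3 higher and 2 lower of 12 in eosinophils (median 0.12). Gclc, the catalytic subunit of the first enzyme of glutathione synthesis, fell in ILC2s from 277 ± 6.29 to 137 ± 6.89 CPM (-1.03 ± 0.041). The transferase genes Gstm1 and Gsto1 rose in both cells, Gstm1 by 1.68 ± 0.10 in ILC2s and 1.79 ± 0.17 in eosinophils and Gsto1 by 1.27 ± 0.088 and 0.83 ± 0.095.

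Among haem and iron genes 5 rose and 1 fell of 10 in ILC2s (median 0.26), and 3 rose and 3 fell of 11 in eosinophils (median 0.14). Tfrc, the transferrin receptor for iron uptake, moved in the same directions as Hmox1. It rose in ILC2s from 9.96 ± 0.408 to 137 ± 9.37 CPM (3.78 ± 0.063) and fell in eosinophils from 61.4 ± 1.72 to 27.6 ± 0.700 CPM (-1.18 ± 0.072). In eosinophils the iron exporter gene Slc40a1 rose from 28.8 ± 1.97 to 85.6 ± 6.23 CPM (1.54 ± 0.082) and the ferritin gene Fth1 by 0.58 ± 0.069. Blvra, which turns the biliverdin made by haem oxygenase into bilirubin, rose in ILC2s (1.33 ± 0.084).

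Genes that supply NADPH, the electron donor of both the oxidase and thioredoxin reductase, rose in 6 of 7 in ILC2s with none lower (median 0.69). Me1, cytosolic malic enzyme, rose from 2.20 ± 0.179 to 20.3 ± 1.08 CPM (3.21 ± 0.12) and Tkt, transketolase, from 98.2 ± 6.38 to 259 ± 10.9 CPM (1.39 ± 0.044). In eosinophils 2 of 6 rose (median 0.097). Nadk, which makes NADP from NAD, rose from 605 ± 11.3 to 972 ± 6.17 CPM (0.65 ± 0.049, edgeR adjusted p = 3.1e-07), and Tkt by 0.24 ± 0.061 (edgeR adjusted p = 0.010), a call lost without eosinophils alone replicate 1 (0.067) or eosinophils with ILC2s replicate 3 (0.062).

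Genes of the NRF2 and BACH1 system, regulators and targets together, split in ILC2s, with 5 higher and 6 lower of 11 (median -0.22). Osgin1, an NRF2 target, fell from 48.7 ± 1.07 to 6.08 ± 0.154 CPM (-3.01 ± 0.080) and Bach1 from 66.4 ± 2.97 to 24.0 ± 1.37 CPM (-1.48 ± 0.060). Nfe2l2 itself fell from 70.4 ± 3.03 to 34.4 ± 1.47 CPM (-1.04 ± 0.055). Of the other genes of this list, Keap1, Cul3, Maff, Nqo1 (1.06 ± 0.24) and Abcc1 (0.79 ± 0.045) rose. Mafg, Mafk and Sqstm1 (-0.78 ± 0.042) fell, and Nqo1 was low, at 1.29 ± 0.113 CPM alone and 2.71 ± 0.160 CPM cocultured. In ILC2s, then, transcripts of Hmox1, Txnrd1, Srxn1, Nqo1 and Abcc1 rose while those of Nfe2l2, Gclc, Osgin1 and Sqstm1 fell. Several of these were picked from different lists after their values were seen, so this split describes only the genes named. In eosinophils 2 rose and 4 fell of 11 (median 0.045). Maff, a small partner protein of both NRF2 and BACH1, fell from 20.8 ± 3.55 to 6.70 ± 0.988 CPM (-1.66 ± 0.16) and Mafg from 517 ± 9.68 to 414 ± 4.20 CPM (-0.35 ± 0.050), whereas Bach1 did not pass (-0.054 ± 0.075, edgeR adjusted p = 0.66).

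**Figure D4:**
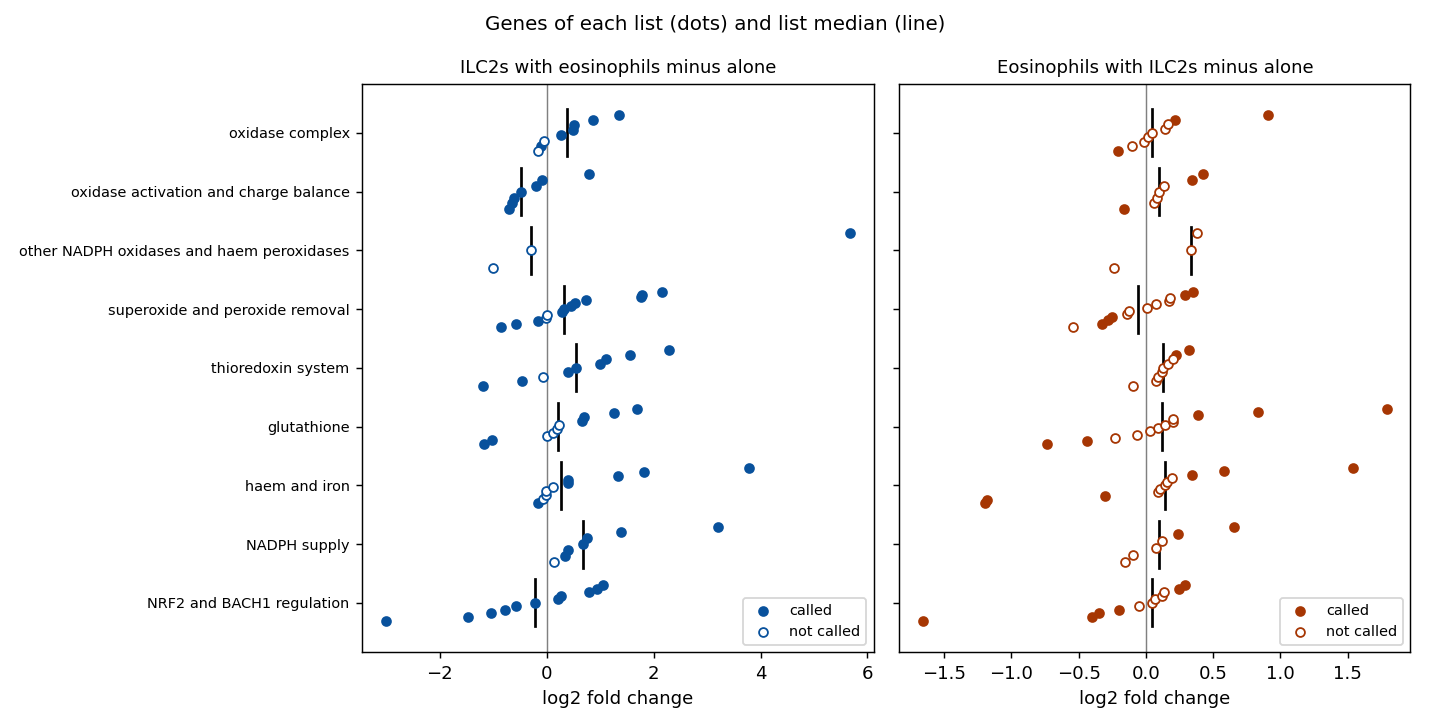
Log2 fold change in cocultured cells over the same cells alone for every tested gene of the 9 lists, in ILC2s (left) and eosinophils (right), with axes that differ between the panels. Filled dots passed the threshold and black lines are list medians, which run from -0.48 to 0.69 in ILC2s and from -0.059 to 0.33 in eosinophils.

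For each gene, the 3 genes with the most similar profile were taken by Euclidean distance of centred log2(CPM + 1) values over the 12 libraries, among the 9410 genes whose mean reached 8 CPM. Hmox1 was nearest to Ppp1r3b (distance 0.655), Cish (0.693) and Aldoa (0.707). Cish, a feedback inhibitor of STAT5 signalling, stood at 101 and 278 CPM in ILC2s alone and cocultured and at 912 and 312 CPM in eosinophils alone and cocultured. Cybb was nearest to Il1rn (0.506), the IL-1 receptor antagonist gene, at 861 CPM in eosinophils alone and 1684 CPM with ILC2s. Its next genes were Rflnb (0.940) and Sirpa (0.954). Txnrd1 was nearest to Selenoi (0.287), Mrpl45 (0.312) and Ywhah (0.314), and Sod2 to Carhsp1 (0.271), Fbxo31 (0.276) and Dcp1b (0.286).

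Among the remaining genes, Ncf1 was nearest to Cyp4f18 (0.395), Ncf4 to Taldo1 (0.359), Cyba to Calm2 (0.333), Rac2 to Asah1 (0.251) and Cat to Cotl1 (0.300). None of the 9 genes was among the 3 nearest of another. The 12 points of a profile come from 4 groups of 3 libraries, and the distance is a description with no test.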

How the data were processed

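RNA was sequenced from 12 mouse libraries, 3 in each of 4 groups given by the labels. The authors deposited whole-number read counts per gene without normalization. Tools in the submitters' processing notes are STAR 2.5.2b and Trimmomatic 0.36, bcl2fastq 2.17, and Subread 1.5.2 with featureCounts; the build is mm10. Not given in the sources used here are the annotation release, the strand setting and how reads with several matches were treated. GENCODE M21, on the same build, gave symbols for 48970 of 49315 identifiers.

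Models for each comparison ran in R 4.3.3 with edgeR 4.0.16 (filterByExpr, TMM, quasi-likelihood F test, no covariates), using the libraries compared, and the difference of responses on all 12. The SE was the log2 fold change divided by the square root of F, and 95% intervals are normal intervals from it. DESeq2 1.42.0 and other scalings, filters, fits and left-out libraries were alternatives. On simulated data the script was tested before use. Counts of replicate pairs differed by more than sampling alone gives, with a chi-square of 2.57 to 19.5 for each degree of freedom.

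The genes and lists were chosen with earlier results of these data known. Named genes are the 9 genes, the 2 smallest p among other called genes of each list per coculture comparison, and the 3 nearest profiles. Other list genes named were chosen after their values were seen. They are Cybc1, Arhgdib, Sod1, Gpx3, Prdx2, Prdx4, Prdx6, Txnip, Srxn1, Fth1, Nfe2l2, Epx, Keap1, Cul3, Mafk, Nqo1, Sqstm1 and Abcc1. No batch is given in the labels.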

Additional observations from a re-analysis of the deposited data

Results flagged for a closer look

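The coculture response differed between ILC2s and eosinophils for 5 of the 9 genes by the test of the difference itself (edgeR, 12 libraries, ILC2 minus eosinophil). By the same test 51.5% of all 15745 genes were called, so the count does not set these genes apart. Hmox1 differed by 3.00 on the log2 scale, rising in 3 of 3 ILC2 libraries above all libraries alone and falling in 3 of 3 eosinophil libraries. The differences were 0.93 for Txnrd1, 0.32 for Ncf4, -0.77 for Sod2 and -0.30 for Cat. That of Ncf4 missed the threshold with library totals.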

How the results depend on the processing

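Counts of calls mostly moved by less than 1.5 times. Exceptions were genes higher in cocultured eosinophils, 1493 in the 6 libraries but 2276 in the fit of all 12 and 948 to 1604 with 1 library left out (948 without eosinophils with ILC2s replicate 3), and genes lower in ILC2s alone than in eosinophils alone, 5796 but 3664 with library totals.

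Signs turned only in small values. In ILC2s, Cat was -0.14 with library totals and -0.052 with upper quartile scaling, and -0.0056 to 0.047 with 1 library left out. Ncf1 ran from -0.42 to 0.069 and Prdx5 from -0.076 to 0.065 with 1 library left out, and Prdx5 was 0.015 with no filter and 0.0018 in the fit of all 12 libraries. In eosinophils, Rac2 was 0.043 with library totals and 0.016 in the fit of all 12 libraries. With 1 library left out Rac2 ran from -0.064 to 0.059, Cyba from -0.062 to 0.13, Arhgdia from -0.014 to 0.11 and Bach1 from -0.12 to 0.0042, and Bach1 was 0.0016 with library totals. Between cocultured cells, Sod2 was 0.21 with library totals and 0.014 with upper quartile scaling.

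Replicate numbers are shared by the groups, but same-numbered libraries did not deviate together in every pair (r from -0.013 to 0.048 between ILC2 groups and 0.048 to 0.40 between eosinophil groups, where 2 of 3 libraries correlated best with their own number). With the replicate block 4168 genes were called in eosinophils, against 3264, and 10422 in ILC2s, against 10454; beside Ncf4 and Txnrd1 in eosinophils and Cyba in the difference of responses (edgeR adjusted p = 0.045), it changed no call of the 9 genes.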
